A study of Homo sapiens with 6 samples.

Results

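The cytosolic ribosomal protein genes were followed in H2122, a line from a human lung adenocarcinoma, after an shRNA against LYCAT. LYCAT is an older name of LCLAT1, an acyltransferase that remodels the fatty acid chains of cardiolipin and other phospholipids. The members were taken by symbol: RPL or RPS with a number and, where present, the ending A, X, L or L1, together with RPLP0, RPLP1, RPLP2 and RPSA, and without RPS27L. This gave 84 of the 23368 genes of the deposited count table, 52 of the large subunit and 32 of the small subunit. The rule itself uses symbols and no measured value. Of these, 78 passed the filter on low counts and were tested, 48 of the large and 30 of the small subunit.

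One group of 3 libraries came from H2122 cells transfected with a control shRNA and the other group of 3 from H2122 cells transfected with LYCAT shRNA, both taken at 48 h, so that all 6 libraries share the cell line, the transfection and the time. Whether libraries of the same group were separate cultures is not said in the labels. P-values therefore measure spread among libraries, and that spread may be technical. In a bulk culture of this kind, a change in every cell and a change in some of the cells cannot be told apart. Library totals ran from 3118946 to 4930079 counts, which makes 3 counts worth 0.609 to 0.962 CPM, the counts scaled to 1000000 per library. LCLAT1 stood at 56.8, 61.2 and 65.3 CPM in the control libraries and at 18.9, 22.6 and 23.6 CPM with LYCAT shRNA (log2 fold change -1.50, SE 0.114, edgeR adjusted p = 1.15e-18).

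The epithelial markers EPCAM, KRT7, KRT8, KRT18, KRT19 and CDH1 all passed the filter. Their summed level was 1601 to 1713 CPM in the control and 1423 to 1489 CPM with LYCAT shRNA. Of 3 leukocyte markers (PTPRC, CD3E, CD14) and 3 endothelial markers (PECAM1, CDH5, VWF), 2 of each were at 0 in every library. The 5 fibroblast markers (COL1A1, COL1A2, COL3A1, DCN, PDGFRB) summed to 85.0, 125 and 30.4 CPM in control libraries 1, 2 and 3 and to 35.3, 18.3 and 29.2 CPM with LYCAT shRNA. Control libraries 1 and 2 thus stood apart through collagen genes. Results without them are also given for the family, its subunits and the lists of other genes.

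A cytosolic ribosome is built from a small subunit, which reads the mRNA, and a large subunit, which joins amino acids and carries the stalk that recruits translation factors. Each subunit binds its proteins in near fixed proportion, and surplus free ribosomal proteins are degraded. The mRNAs of these proteins typically start with a C followed by a run of pyrimidines, the 5′ terminal oligopyrimidine tract, through which mTORC1 signalling controls their translation. RPL5 and RPL11, together with 5S rRNA, can bind MDM2 when ribosome assembly is disturbed, and this stabilises p53.

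The start sites are printed for the genes with the largest changes and for their paralogs, to show which carry the tract at the annotated start. Each window covers 30 bases before the annotated transcription start and 15 bases from it onward, 5′ to 3′ on the strand of the gene. Capitals mark the pyrimidine run that begins at the annotated first base with a C, and a window with no capitals has none. The sequences are those of RefSeq on GRCh38.p14, and the sources used here do not give the build of the deposited counts.
RPS4X (chrX:72277234-72277278, minus strand): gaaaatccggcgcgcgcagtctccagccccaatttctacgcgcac
RPL28 (chr19:55385902-55385946, plus strand): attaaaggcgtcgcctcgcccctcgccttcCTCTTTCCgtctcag
RPL22L1 (chr3:170870181-170870225, minus strand): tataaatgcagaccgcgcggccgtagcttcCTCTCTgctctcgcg
RPL22 (chr1:6199581-6199625, minus strand): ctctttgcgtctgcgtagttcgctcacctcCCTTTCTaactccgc
RPL3 (chr22:39319609-39319653, minus strand): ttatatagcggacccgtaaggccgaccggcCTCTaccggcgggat
RPL12 (chr9:127451392-127451436, minus strand): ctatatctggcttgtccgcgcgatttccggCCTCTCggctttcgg
RPL26L1 (chr5:172958699-172958743, plus strand): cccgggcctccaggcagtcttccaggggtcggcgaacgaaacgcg
RPL26 (chr17:8383179-8383223, minus strand): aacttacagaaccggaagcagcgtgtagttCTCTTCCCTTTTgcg
RPLP1 (chr15:69452788-69452832, plus strand): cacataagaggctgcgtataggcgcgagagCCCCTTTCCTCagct
RPS21 (chr20:62387073-62387117, plus strand): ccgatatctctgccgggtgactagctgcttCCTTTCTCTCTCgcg
RPS27L (chr15:63157463-63157507, minus strand): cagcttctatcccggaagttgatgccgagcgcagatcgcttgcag
RPS27 (chr1:153990732-153990776, plus strand): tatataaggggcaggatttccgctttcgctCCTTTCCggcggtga

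In these windows RPS21, which fell, had a run of 12 pyrimidines, as did RPL26, which was not called. RPS4X, the member with the largest rise, had none at its annotated start, and a run beginning at another base was not scored. RPL28, RPL22L1, RPL12 and RPLP1, which rose, had runs of 8, 6, 6 and 11, and RPL3 had a run of 4. The tract counts as present in what follows where a C at the annotated start opens a run of at least 5 pyrimidines. It was present in 47 of the 66 members with an entry in the promoter table (71.2%), against 5.14% of the 27305 genes of that table. Among members that rose it was present in 10 of 14 (71.4%), and among members not called in 35 of 49 (71.4%). The share was 69% for the large and 75% for the small subunit. The share with the tract was thus far above that of all genes in the family as a whole, and the same in the members that rose and those not called. In windows of 300 bases, 250 before the start and 50 after, read on both strands, the TATA box TATAAA was found in 10.6% of members and 14% of all genes. CCGGAAG, a core of ETS family binding sites, was found in 34.8% of members and 12.2% of all genes, and AAGATGGC, a core of YY1 sites, in 10.6% and 3.52%. These are matches of letters and no measure of binding.

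After LYCAT shRNA, the ribosomal protein genes changed little in size and more often upward than downward. Called means an edgeR quasi-likelihood F test with a Benjamini-Hochberg adjusted p under 0.05 over all 11097 tested genes. Of the 78 tested members, 17 rose (21.8%), against 9.81% of all tested genes, and 2 fell (2.56%), against 9.26%. In either direction 24.4% of members and 19.1% of all tested genes were called. The remaining 59 were not called. The members are abundant, 76 of 78 at a mean of at least 100 CPM, and abundant genes are called more often. Among the 2120 other genes at 100 CPM or more, 18.1% rose and 14% fell. The share of members that rose was therefore near that of other abundant genes, and the share that fell was below it. No test of either difference in shares was made. Without control libraries 1 and 2, 15 members rose and 2 fell, of which 11 and 1 were among those called with all libraries. Of all genes tested without these libraries, 5.04% rose and 4.89% fell.

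The rises were small. The folds of the 17 genes ran from 1.09 to 1.30, and only 1 member, RPS4X, changed by 1.2-fold or more in either direction. Over the 78 members the log2 fold change had a median of 0.04 (-0.01 over all tested genes), quartiles of -0.0049 and 0.11, and a range of -0.25 to 0.37. Its SD across members was 0.0943, against 0.375 across all tested genes, and 56 of 78 members lay above 0. The members were measured more precisely than most genes, with a median SE of 0.0441 against 0.120. For 56 of the 59 genes not called, the 95% confidence interval lay within a 1.2-fold change in either direction. The 17 calls depended on single libraries: 6 members rose without LYCAT shRNA library 1, 6 without LYCAT shRNA library 3, 10 without control library 1 and 25 without control library 2. Among the 17 called with all libraries were 6, 6, 9 and 14 of these, in the same order. The number of calls over all genes moved too. In that order 742 of 11218, 765 of 11334, 844 of 11185 and 1128 of 11200 tested genes rose, against 1089 of 11097 with all libraries.

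**Figure D1:**
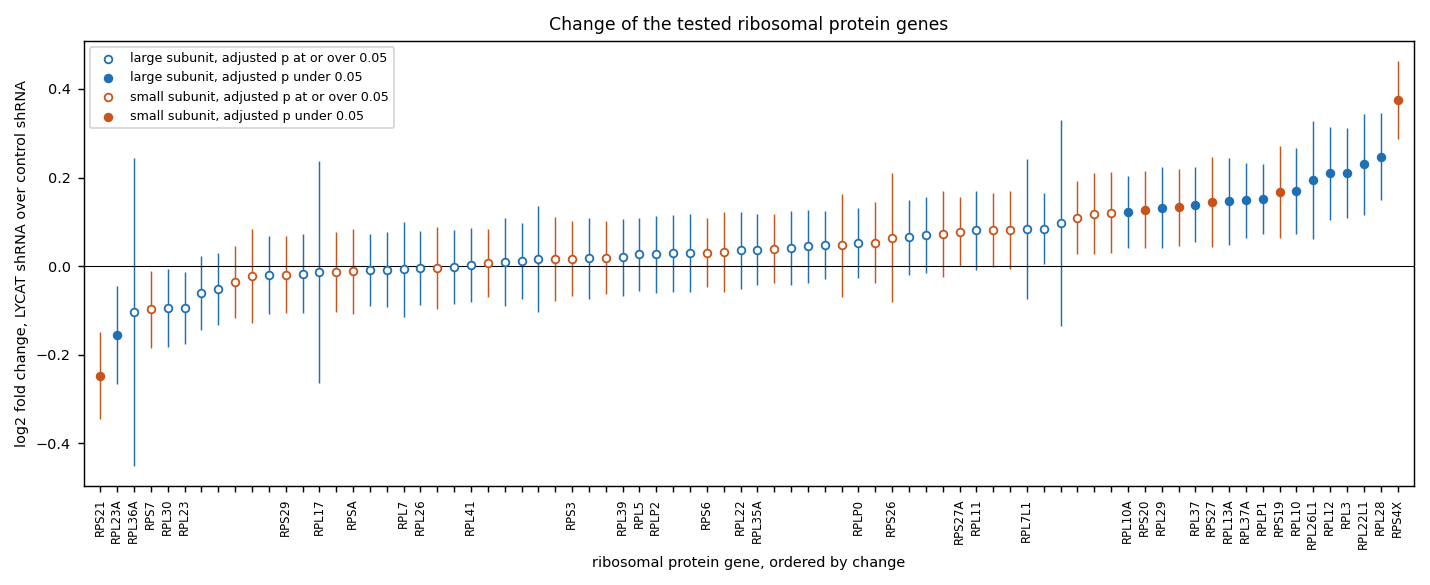
Log2 fold change (LYCAT shRNA over control shRNA, y axis) of each of the 78 tested ribosomal protein genes, ordered by change along the x axis (the genes described by name are labelled), with the 95% confidence interval as a bar; blue is large and orange small subunit, and filled points have an edgeR adjusted p under 0.05. Values run from -0.25 for RPS21 to 0.37 for RPS4X, and most intervals reach 0.

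RPS4X, a small subunit protein encoded on the X chromosome, rose the most. It measured 1166, 1342 and 1188 CPM in the control and 1658, 1554 and 1581 CPM with LYCAT shRNA. The lowest LYCAT shRNA library lay above the highest control library. The fold was 1.30 (log2 fold change 0.37, SE 0.0443, edgeR adjusted p = 2.85e-10), and the call held in each of the 21 alternative analyses. RPS21, another small subunit protein and one without a bacterial counterpart, fell the most. It stood at 566, 526 and 597 CPM in the control and 450, 484 and 489 CPM with LYCAT shRNA, again with no overlap. The level was 1.19-fold lower (log2 fold change -0.25, SE 0.0493, edgeR adjusted p = 8.41e-05), and this call also held in each of the 21 alternatives. The largest rise and the largest fall of the family were thus both in the small subunit.

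Among large subunit genes RPL28, a protein of eukaryotic ribosomes without a bacterial counterpart, rose the most. It measured 447, 516 and 447 CPM in the control and 562, 550 and 564 CPM with LYCAT shRNA, with no overlap (log2 fold change 0.25, SE 0.0497, edgeR adjusted p = 0.000102). This call held in all 21 alternatives. RPL3, which reaches close to the peptidyl transferase centre, measured 408, 466 and 396 CPM against 502, 480 and 489 CPM, also without overlap (0.21, SE 0.0511, edgeR adjusted p = 0.00142). RPL10, which sits near the same centre and joins the large subunit late in its maturation, measured 634, 694 and 583 CPM against 722, 686 and 741 CPM. Here LYCAT shRNA library 2 lay below control library 2, and the groups overlapped (0.17, SE 0.0488, edgeR adjusted p = 0.0085). Its call was lost without control library 3 (edgeR adjusted p = 0.127), without LYCAT shRNA library 1 (0.0700) and without LYCAT shRNA library 3 (0.0816).

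The stalk proteins did not share a call. RPLP1, 1 of the acidic proteins at the tip of the stalk, measured 3008, 3276 and 3018 CPM in the control and 3485, 3475 and 3367 CPM with LYCAT shRNA. The groups did not overlap (log2 fold change 0.15, SE 0.0397, edgeR adjusted p = 0.00332), although the call was lost without LYCAT shRNA library 1 (adjusted p = 0.0531). Its partner RPLP2 measured 1316, 1506 and 1338 CPM against 1434, 1372 and 1432 CPM, and RPLP0, which anchors the stalk to rRNA, 2842, 3143 and 2890 CPM against 3096, 3112 and 2995 CPM. Both overlapped and were not called (edgeR adjusted p = 0.733 and 0.406). Without control library 2, RPLP0 was called higher (log2 fold change 0.10, edgeR adjusted p = 0.0284). RPL12, at the base of the stalk, measured 314, 321 and 293 CPM against 354, 338 and 380 CPM, with no overlap (0.21, SE 0.0531, edgeR adjusted p = 0.00228). Its call was lost without LYCAT shRNA library 3 (adjusted p = 0.0582). Whether RPLP1 and RPL12 differed in change from RPLP0 and RPLP2 was not tested.

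**Figure D2:**
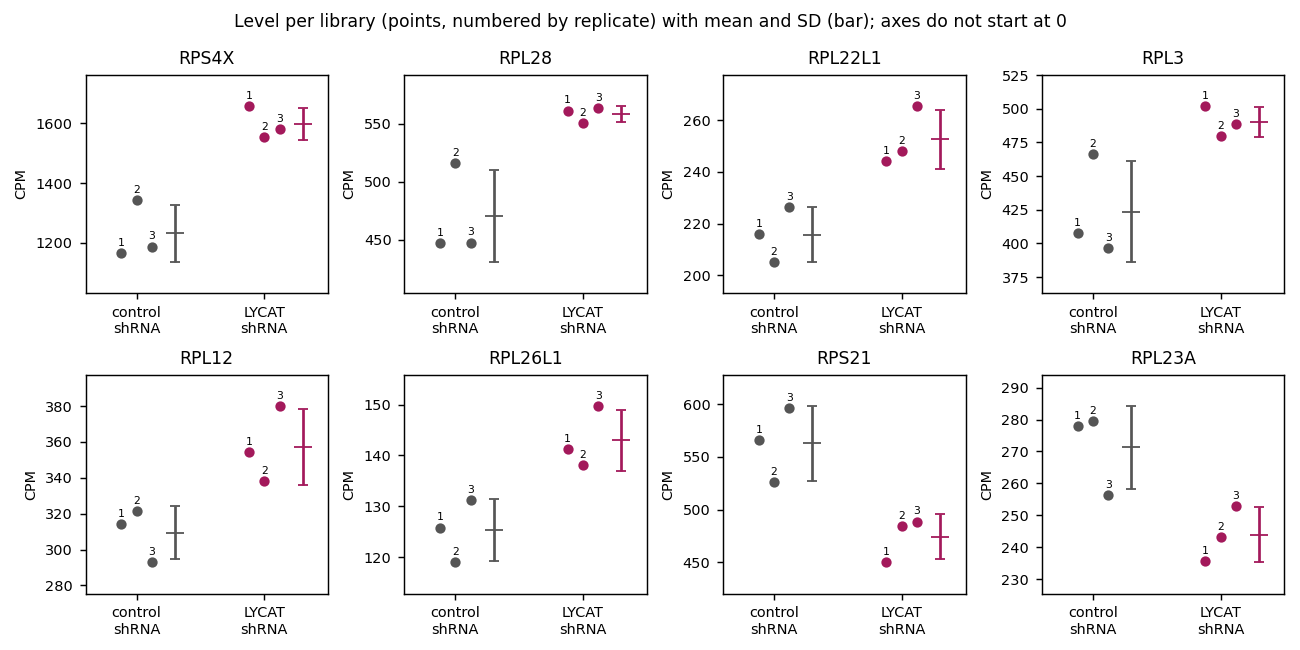
CPM in each library (points numbered by replicate, y axis; axes do not start at 0) of the 6 called members with the largest rise and the 2 that fell, with mean and SD beside them; grey is control and magenta LYCAT shRNA. The groups do not overlap for any of the 8 genes, and the widest gap is that of RPS4X, with 1342 CPM as the highest control and 1554 CPM as the lowest LYCAT shRNA library.

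RPL23A, which lies at the exit of the peptide tunnel and contacts the signal recognition particle, was the other member that fell. It measured 278, 279 and 256 CPM in the control and 236, 243 and 253 CPM with LYCAT shRNA, so that control library 3 and LYCAT shRNA library 3 lay close together without overlapping. Its call (log2 fold change -0.16, SE 0.0557, edgeR adjusted p = 0.0388) was lost in 10 of the 21 alternatives. When the counts of its 5 pseudogene rows were added, the change was -0.06 (edgeR adjusted p = 0.533). It was also lost without control library 1 (0.130), control library 2 (0.0685), LYCAT shRNA library 1 (0.220) or LYCAT shRNA library 2 (0.109), and without both control libraries 1 and 2 (0.586). RPS7, RPL30 and RPL23, chosen here after their values were seen as the next in order among the abundant members, had log2 fold changes of -0.10, -0.09 and -0.09 and were not called (edgeR adjusted p = 0.108, 0.130 and 0.0982). In RPS7 and RPL23 all LYCAT shRNA libraries lay below all control libraries.

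The other members that rose included RPS19, RPL37A, RPL13A, RPS27, RPL37, RPL29, RPS20 and RPL10A, beside the paralogs RPL22L1 and RPL26L1 described below. RPS19, needed for 18S rRNA maturation and a gene of Diamond-Blackfan anaemia, measured 416, 382 and 436 CPM against 428, 464 and 494 CPM with overlapping groups (log2 fold change 0.17, edgeR adjusted p = 0.0155). RPL10A, of the mobile L1 stalk that guides spent tRNA out, measured 1653, 1644 and 1714 CPM against 1802, 1816 and 1836 CPM without overlap (0.12, edgeR adjusted p = 0.0237). The log2 fold changes of the other 6 named here ran between those of RPL10A and RPS19. RPL29 and RPS20 overlapped between the groups, and RPL37A, RPL13A, RPS27 and RPL37 did not. For RPL13A the margin was small, with 600 CPM in both control library 1 and LYCAT shRNA library 1. Each of these 8 genes lost its call on leaving out at least 1 library. Leaving out LYCAT shRNA library 1 ended the calls of all but RPS19 (edgeR adjusted p = 0.0524 to 0.271), LYCAT shRNA library 3 those of all but RPL37A (0.0615 to 0.206), and control library 1 those of all but RPS19 and RPL13A (0.0578 to 0.188). The calls of RPS19 and RPL13A ended without LYCAT shRNA library 2 or control library 2 and that of RPL10A without LYCAT shRNA library 2 (0.0597 to 0.171), and those of RPS27, RPL29 and RPS20 without control library 3 (0.107 to 0.145).

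RPL5 and RPL11, the members that bind MDM2 with 5S rRNA, were not called. RPL5 measured 1495, 1568 and 1485 CPM in the control and 1554, 1542 and 1537 CPM with LYCAT shRNA, with overlap. Its log2 fold change was 0.03, with a 95% confidence interval from -0.06 to 0.11 (edgeR adjusted p = 0.719). RPL11 measured 759, 782 and 774 CPM against 798, 793 and 858 CPM. All LYCAT shRNA libraries lay above all control libraries, at a log2 fold change of 0.08 with a 95% confidence interval from -0.01 to 0.17 (edgeR adjusted p = 0.214). In the same libraries MDM2, the p53 ubiquitin ligase, measured 158, 155 and 161 CPM against 268, 281 and 270 CPM (0.79, SE 0.0582, edgeR adjusted p = 3.07e-19). MDM4, its relative, measured 116, 127 and 119 CPM against 92.3, 99.3 and 94.1 CPM (-0.35, SE 0.0725, edgeR adjusted p = 0.000189). The list for MDM2 and p53 with the 5S particle had 5 tested genes, RPL5 and RPL11 included. Of these, 1 rose (20%) and 1 fell (20%), against 9.81% and 9.26% of all tested genes. The median log2 fold change of this list was 0.03 with all libraries and 0.06 without control libraries 1 and 2.

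RPS6, the substrate of S6 kinase, RPS3, at the mRNA entry site, and RPSA, the laminin receptor protein, had log2 fold changes of 0.03, 0.02 and -0.01. None was called (edgeR adjusted p = 0.652, 0.845 and 0.904), and their groups overlapped. For RPSA the count is uncertain, because 3 pseudogene rows held 36347 counts over the 6 libraries against 11545 for the gene. With these added, its log2 fold change was 0.03. RPS26 had 1 such row with 5655 counts against 2765 for the gene, and for every other member with such rows and over 100 counts of its own the pseudogenes held fewer counts than the gene. Over the family, 24 of 28 pseudogene rows had counts, equal to 2.33% to 2.58% of the member counts of a library.

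The most abundant members per length included RPS27A, which is made as a fusion with ubiquitin, at 5444 CPM per kilobase of transcript, RPL26 at 5430, RPS29 at 4395 and RPL35A at 4047. None of these 4 was called. RPS27A measured 4008, 4415 and 4229 CPM against 4541, 4391 and 4416 CPM with overlap (log2 fold change 0.08, edgeR adjusted p = 0.164). It was called higher without control library 2 (0.11, edgeR adjusted p = 0.00874). The log2 fold changes of RPL26, RPS29 and RPL35A lay between -0.02 and 0.04. The least abundant tested members were RPL36A at 32.5, RPL7L1 at 35.7 and RPL17 at 44.1 CPM per kilobase, and none was called. By CPM alone RPL36A and RPL17 also ranked 78 and 77 of 78, so their low place does not rest on the length. Whether reads of RPL36A and RPL17 were lost to other loci was not tested. Counted per kilobase of coding sequence, RPL41 came first, and its log2 fold change was 0.00. The order at the top therefore depends on the transcript model used for the length, and some of the models are long.

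Abundance and change were nearly unrelated across the 78 members. Spearman's rho between mean CPM per kilobase of transcript and log2 fold change was -0.13, and -0.0072 when CPM was not divided by length. All points share the same 6 libraries, so this is a description of these genes and carries no p. The change had a rho of 0.0945 with GC content, 0.242 with transcript length and 0.0543 with coding length. GC content had a median of 51.1% among the members that rose and 49.5% among those not called. With offsets for length and GC content, 10 of the 17 rises were called, and no other member was called higher, while 4 members fell in place of 2. The largest rises lay with members of middle and low abundance per length, such as RPS4X at 927 and RPL28 at 604 CPM per kilobase. RPL12 stood at 527 and RPL3 at 317, while RPS27A and RPL26 at the top changed little. Abundant members also rose, such as RPS20 at 3118 and RPLP1 at 2733 CPM per kilobase (log2 fold changes 0.13 and 0.15). The positions depend on the length, and by CPM alone RPS4X ranked 25 of 78.

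**Figure D3:**
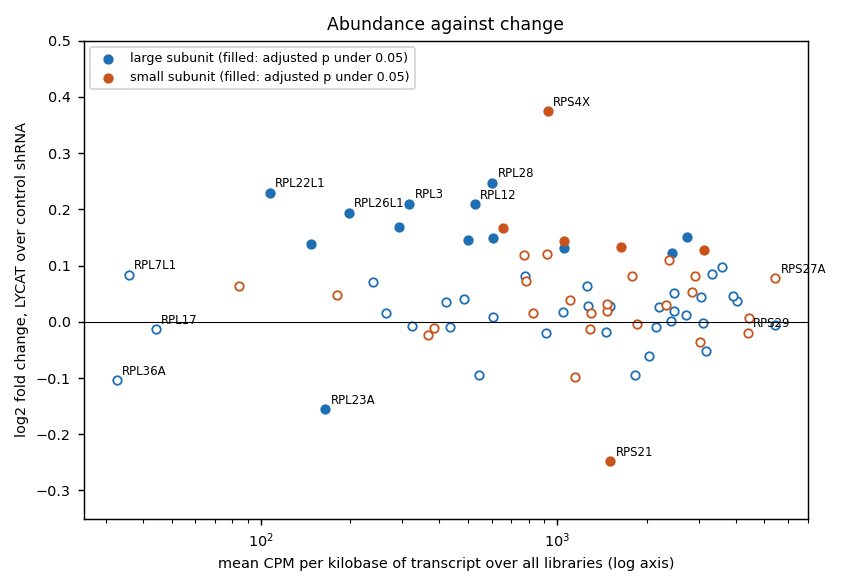
Log2 fold change (LYCAT shRNA over control shRNA, y axis) against mean CPM per kilobase of transcript over all libraries (log x axis) for the 78 tested members; blue is large and orange small subunit, filled points have an edgeR adjusted p under 0.05. The points form no slope (Spearman's rho -0.13), with RPS4X highest at 0.37 and RPS21 lowest at -0.25.

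The large and the small subunit moved alike in their medians. The median log2 fold change was 0.03 over 48 large subunit genes and 0.04 over 30 small subunit genes. Of the large subunit genes 12 rose (25%) and 1 fell (2.08%), and of the small subunit genes 5 rose (16.7%) and 1 fell (3.33%). Over all tested genes 9.81% rose and 9.26% fell, and among other genes at 100 CPM or more 18.1% rose and 14% fell. Without control libraries 1 and 2 the median log2 fold change was 0.06 for the large and 0.02 for the small subunit. No overlap with LYCAT shRNA above was seen for 16 large and 5 small subunit genes, against 16.6% of all tested genes and 26.1% of other genes at 100 CPM or more. That made 33.3% of the large and 16.7% of the small subunit genes. In both subunits together it was 21 genes (26.9%), and 5 genes (6.41%) lay below without overlap, against 16.2% of all tested genes and 19.8% of other abundant genes. The difference of the medians, large minus small, was -0.01. It turned to 0.01 without LYCAT shRNA library 2 or control library 2 and to 0.04 without control libraries 1 and 2.

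Summed over all 84 members, ribosomal protein genes took 9.48%, 9.89% and 9.61% of the counts of the control libraries (9.66% ± 0.214, SD, n = 3). With LYCAT shRNA they took 9.94%, 9.78% and 9.97% (9.90% ± 0.103, SD, n = 3). LYCAT shRNA library 2 lay below control library 2, so the groups overlapped. The large subunit took 5.66%, 5.89% and 5.71% in the control and 5.91%, 5.79% and 5.94% with LYCAT shRNA. The small subunit took 3.820%, 4.001% and 3.897% against 4.024%, 3.989% and 4.036%. Counts of large over small subunit genes stood at 1.481, 1.473 and 1.465 in the control and 1.469, 1.451 and 1.471 with LYCAT shRNA, again overlapping. The libraries also differed within a group across the family: control library 2 was the highest of the controls for 44 of 78 members and control library 1 the lowest for 38. Among the LYCAT shRNA libraries, library 3 was the highest for 42 members and library 2 the lowest for 44.

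**Figure D4:**
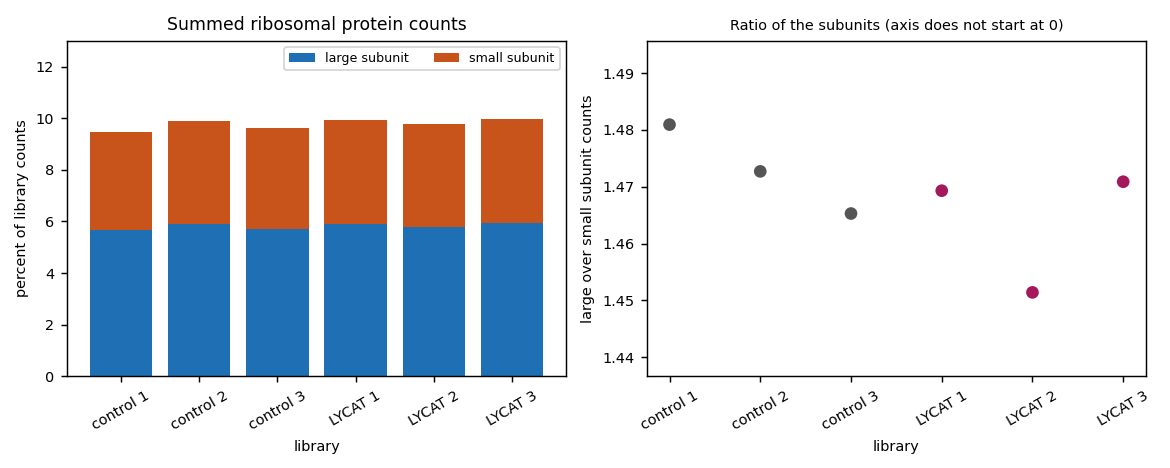
Left, percent of all counts of each library (bars, y axis from 0) that fell on large (blue) and small (orange) subunit genes; right, the ratio of the subunits' counts (points, axis not from 0). The shares sum to between 9.48% and 9.97%, and control library 2 reaches the level of the LYCAT shRNA libraries.

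Several ribosomal proteins have a paralog that can take the same place in the ribosome. RPL22L1, the paralog of RPL22, measured 216, 205 and 226 CPM in the control and 244, 248 and 266 CPM with LYCAT shRNA, without overlap (log2 fold change 0.23, SE 0.0574, edgeR adjusted p = 0.00192). RPL22 measured 861, 864 and 865 CPM against 891, 875 and 887 CPM (0.04, edgeR adjusted p = 0.633). The counts of RPL22L1 were 25.1%, 23.7% and 26.2% of those of RPL22 in the control and 27.4%, 28.3% and 29.9% with LYCAT shRNA. Every LYCAT shRNA library lay above every control library in this ratio, which is not adjusted for transcript length. The exact two-sided permutation test gave p = 0.1, the smallest that 3 against 3 libraries allow, and 0.125 after adjustment over the 5 pairs. Without control libraries 1 and 2 the call of RPL22L1 was lost (log2 fold change 0.16, edgeR adjusted p = 0.152).

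RPL26L1 measured 126, 119 and 131 CPM against 141, 138 and 150 CPM, without overlap (log2 fold change 0.19, SE 0.067, edgeR adjusted p = 0.0304). RPL26 itself was not called (-0.01, edgeR adjusted p = 0.953). The ratio of RPL26L1 to RPL26 was 4.25%, 3.51% and 4.11% in the control and 4.36%, 4.60% and 4.57% with LYCAT shRNA, without overlap (exact permutation p = 0.1, adjusted 0.125). The call of RPL26L1 was lost in 9 of the 21 alternatives, and leaving out control library 1 (edgeR adjusted p = 0.0582), control library 2 (0.0941), LYCAT shRNA library 1 (0.0772) or LYCAT shRNA library 3 (0.162) was enough. RPL7L1, which is related to RPL7, gave 32.5%, 47.8% and 30.4% of RPL7 in the control and 39.3%, 40.8% and 37.2% with LYCAT shRNA. Control library 2 was both the highest of the 6 and far from its group (exact permutation p = 0.6). Without it RPL7L1 was called higher (log2 fold change 0.23, edgeR adjusted p = 0.00886).

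RPS27L, which the rule leaves out, is a p53 target that pairs with RPS27. It measured 101, 97.9 and 104 CPM in the control and 332, 326 and 342 CPM with LYCAT shRNA, a 3.30-fold rise without overlap (log2 fold change 1.72, SE 0.0607, edgeR adjusted p = 1.64e-38). RPS27 measured 354, 372 and 349 CPM against 395, 380 and 412 CPM (0.14, SE 0.0507, edgeR adjusted p = 0.0343). The counts of RPS27L were therefore 28.6%, 26.4% and 29.9% of those of RPS27 in the control and 83.9%, 85.9% and 82.9% with LYCAT shRNA (exact permutation p = 0.1, adjusted 0.125). No member of the family changed by nearly as much. RPL36AL over RPL36A also did not overlap (exact permutation p = 0.1), but RPL36A had a mean of only 14.4 CPM in the control and 13.5 CPM with LYCAT shRNA. Neither gene was called (RPL36AL log2 fold change 0.11, edgeR adjusted p = 0.121; RPL36A -0.10, adjusted p = 0.743), although RPL36AL was called higher without control library 1 (0.16, adjusted p = 0.0477).

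**Figure D5:**
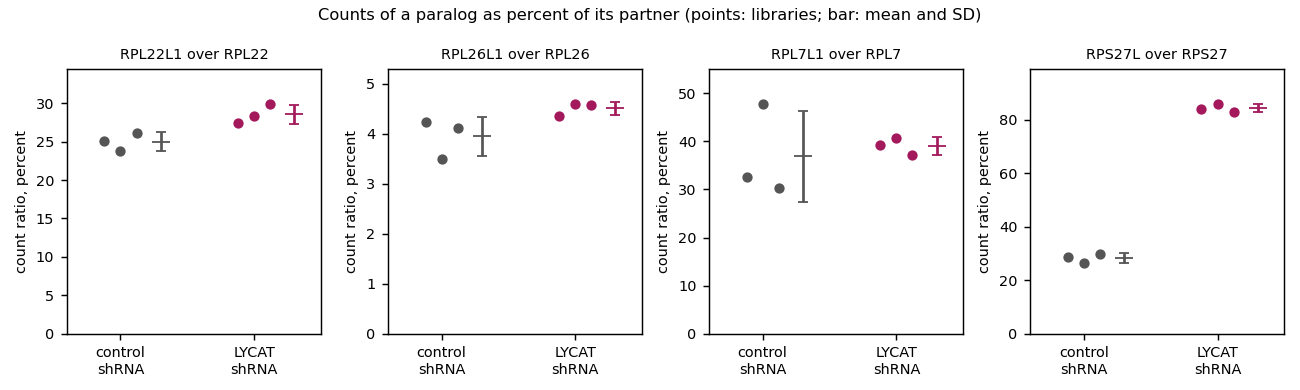
Counts of a paralog as percent of the counts of its partner (y axis from 0) in each library (points) with mean and SD (bar), for RPL22L1 over RPL22, RPL26L1 over RPL26, RPL7L1 over RPL7 and RPS27L over RPS27; grey is control and magenta LYCAT shRNA. The ratio moved from 26.4% to 29.9% in the control up to 82.9% to 85.9% for RPS27L, and control library 2 stands apart for RPL7L1.

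The other paralogs were at or near the limit of detection. RPL3L and RPL10L were among 4 members listed at 0 in every library, and RPL21 had 1 count in all. RPL39L had 7, 6 and 4 counts in the control and 9, 0 and 3 with LYCAT shRNA. These 6 members did not pass the filter and were not tested. RPL39, the partner of RPL39L, was tested and not called (0.02, edgeR adjusted p = 0.814). RPL21 has many processed copies in the genome, so its count is uncertain.

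FAU, a ribosomal protein gene outside the naming rule that encodes a fusion with a small subunit protein, measured 817, 828 and 833 CPM against 872, 844 and 856 CPM and was not called (0.05, edgeR adjusted p = 0.431).

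Genes that make and assemble ribosomes were called in small numbers, and the counts below are set beside 9.81% higher and 9.26% lower over all tested genes. Whether a list differs from these shares was not tested. Of 15 tested genes of RNA polymerase I transcription, which makes the rRNA precursor, 3 rose (20%) and 0 fell by edgeR, with a median log2 fold change of 0.12; at an unadjusted p under 0.05, 6 were higher and 0 lower, and DESeq2 called 3 and 0. They were CD3EAP (0.46, edgeR adjusted p = 9.3e-06), POLR1D (0.33, 2.61e-05) and POLR1C (0.31, 0.00561), subunits of that polymerase. Of 37 nucleolar genes of rRNA modification and processing, 5 rose (13.5%) and 3 fell (8.11%), near the shares of all genes (median 0.05), among them IMP3 of the small subunit processome (0.31, edgeR adjusted p = 2.49e-06), DDX21 (0.24, 2.44e-05), NCL, the nucleolin gene (0.18, 0.000744), and UTP20 (-0.27, 0.0182). Of 31 large subunit assembly genes, 6 rose (19.4%) and 1 fell (3.23%) (median 0.10), with EIF6, which keeps the large subunit from joining too early, at 0.22 (edgeR adjusted p = 0.000781) and MDN1, a remodelling ATPase, at -0.26 (0.0462). Of 24 small subunit assembly genes, 3 rose (12.5%) and 0 fell by edgeR (median 0.10): AATF (0.29, edgeR adjusted p = 0.000818), PNO1 (0.32, 0.00213) and TSR1 (0.23, 0.0111). At an unadjusted p under 0.05, 7 of these were higher and 0 lower, and DESeq2 called 2 and 0. For the nucleolar genes the unadjusted numbers were 12 and 4, and DESeq2 called 5 and 0. For large subunit assembly they were 9 and 3, and DESeq2 called 2 and 0. Over all 11097 tested genes DESeq2 called 635 higher and 558 lower. The share of all genes at an unadjusted p under 0.05 is not given here. Leaving out single libraries ended the calls of MDN1 (any library but control 3), UTP20 (LYCAT shRNA 2 or 3, control 2 or 3), POLR1C (LYCAT shRNA 3 or control 1) and TSR1 (LYCAT shRNA 3), at edgeR adjusted p = 0.0511 to 0.205. Without control libraries 1 and 2, the median log2 fold change was 0.14 for the polymerase I genes and -0.005 for the nucleolar genes. It was 0.08 for large and 0.11 for small subunit assembly, beside 0.003 for all genes tested in that fit. The medians of 0.12, 0.05, 0.10 and 0.10 with all libraries stood beside 0.04 for the ribosomal protein genes and -0.01 for all tested genes.

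Of 26 translation factors and related proteins known to have mRNAs with the same tract, 5 rose (19.2%) and 1 fell (3.85%), against 9.81% and 9.26% of all tested genes (median log2 fold change 0.05). Among genes other than members at 100 CPM or more, 18.1% rose and 14% fell. The median of these factors was 0.06 without control libraries 1 and 2. EEF2, which moves the ribosome along the mRNA, measured 2253, 2316 and 2190 CPM against 2638, 2566 and 2719 CPM (0.23, SE 0.04, edgeR adjusted p = 6.67e-06). EIF3E of the initiation factor eIF3 measured 208, 204 and 218 CPM against 162, 180 and 186 CPM (-0.26, edgeR adjusted p = 0.00108), while EIF3K of the same complex rose (0.30, 0.000447). The call of EIF3E was lost without LYCAT shRNA library 1 (adjusted p = 0.0603) and that of EIF3K without control libraries 1 and 2 (0.0668). Of 23 genes of mTORC1, S6 kinase and regulators of oligopyrimidine mRNAs, 5 rose and 5 fell (21.7% each, against 9.81% and 9.26%; median -0.04). Without control libraries 1 and 2 their median was 0.02, and with all libraries DESeq2 called 3 higher and 3 lower. DDIT4, an inhibitor of mTORC1, measured 389, 331 and 345 CPM against 242, 232 and 244 CPM (-0.57, SE 0.0559, edgeR adjusted p = 1.86e-13). PDCD4, an inhibitor of translation that S6 kinase marks for degradation, and SESN2, a leucine sensor of the pathway, fell as well (log2 fold changes -0.58 and -0.54, edgeR adjusted p = 5.31e-05 and 0.000146). SESN1, a relative of SESN2 and a p53 target, rose (1.03, edgeR adjusted p = 0.000202), and its call was lost without control libraries 1 and 2 (adjusted p = 0.0897). Of 11 genes of ribosome stalling and recycling, ASCC3 rose (0.41, edgeR adjusted p = 0.00235), GTPBP1 and GTPBP2 fell (-0.50 and -0.51), and 8 were not called. That made 9.09% higher and 18.2% lower, against 9.81% and 9.26% of all tested genes. Without control libraries 1 and 2 the calls of ASCC3, GTPBP1 and GTPBP2 were lost as well (adjusted p = 0.122, 0.178 and 0.0984), and that of GTPBP2 also without control library 1 (0.0927).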

How the data were processed

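The authors deposited 1 table of raw counts per gene symbol for the 6 libraries. The submitters' processing notes name featureCounts 1.5.1, the aligners BWA 0.7.15 and Bowtie2, the converter bcl2fastq 2.17, and the builds hg19 and mm10. Which aligner and build made the table, how strand was used and how reads matching several places were treated are not given in the sources used here. Columns were assigned by their names, of which those of the LYCAT group read as a misspelling of LYCAT.

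From the counts, edgeR 4.0.16 (R 4.3.3) was run on all genes with filterByExpr by group, TMM factors (0.993 to 1.01), robust glmQLFit and glmQLFTest on group alone. The Benjamini-Hochberg method adjusted p-values over the 11097 tested genes. The SE is the size of the log2 fold change divided by the square root of F. Intervals cover the spread between libraries. CPM uses the scaled library sizes, and shares use library totals. Lengths came from GENCODE v29, by symbol, as the shortest complete well supported transcript. The fits were tested on simulated counts.

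The members and the lists of other genes were chosen with earlier results of these data known. The genes named were LCLAT1, the 6 called members with the largest change in each direction, the 5 most and 3 least abundant members per length, the paralog pairs, RPL5, RPL11, the stalk genes, RPSA, RPS6, RPS3 and RPS27A, and from each list, per direction, the called gene of smallest adjusted p, with at most 2 others. The remaining called members, and RPL23, RPL30, RPL41, RPS7, RPS26 and FAU, were named after their values were seen. A few genes that these rules select are not reported here by name.

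Alternatives were library totals, DESeq2 size factors, upper-quartile factors, TMM without the members, no filter, DESeq2 1.42.0, a filter at a mean of 5 CPM, voom in limma 3.58.1, glmTreat against 1.1-fold, robust=FALSE, a replicate block, offsets for length and GC content, and leaving out each library. Chosen after seeing the data were leaving out control libraries 1 and 2, adding pseudogene counts to their genes, and CPM per kilobase of coding sequence.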

Additional observations from a re-analysis of the deposited data

How the results depend on the processing

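The median log2 fold change of the members stayed above 0 in every alternative that gives one, at 0.02 to 0.06. The median over all tested genes moved as well. With length and GC offsets it was 0.0075 beside 0.0171 for the members, a smaller gap than -0.0057 beside 0.0359 in the main fit. With the replicate block added to the offsets these were 0.0079 and 0.0190. The members' share of counts was 0.145 to 0.354 points higher with LYCAT shRNA on leaving out each library. The number of members that rose was 17 with edgeR and ranged from 6 to 25 on leaving out each library. It was 10 with DESeq2, 10 with length and GC offsets, and 2 with glmTreat against a 1.1-fold change (RPS4X and RPL28), and those called under these settings were all among the 17. Over all 11097 tested genes, 635 rose with DESeq2, 1204 with these offsets and 560 with glmTreat, against 1089 with edgeR. The number that fell was 2 and ranged from 1 to 4 on leaving out each library. It was 1 with DESeq2, with glmTreat, with no low-count filter and with pseudogene counts added, and 4 with length and GC offsets. The replicate numbers did not pair the libraries (correlation of deviations 0.00509, -0.0645 and -0.0477 for numbers 1, 2 and 3). With a replicate block 17 members rose and 1 fell, and with the block and the length and GC offsets 10 rose and 4 fell. The large minus small difference of medians ranged from -0.0152 to 0.0129 on leaving out each library and was 0.0415 without control libraries 1 and 2. Spearman's rho between abundance and change was -0.0072 without division by length, and -0.178 to -0.0916 on leaving out each library.

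Some members close to 0, none of them called, changed sign. With length and GC offsets the log2 fold change was -0.0158 for RPL35A, -0.0478 for RPL39, -0.0019 for RPL5 and -0.0142 for RPS3. With the replicate block as well these were -0.0160, -0.0482, -0.00087 and -0.0140. RPL26 was 0.00092 with no low-count filter, RPSA was 0.0283 with pseudogene counts added, and RPL17 was 0.00031 with limma-voom and 0.0071 with the replicate block. Without control libraries 1 and 2, RPL35A was -0.0071, RPL17 0.237, RPL39 -0.0097 and RPS6 -0.0081. On leaving out each library in turn, RPL26 ranged from -0.0531 to 0.0436, RPS29 from -0.0766 to 0.0265, RPL17 from -0.107 to 0.148, RPL7 from -0.0734 to 0.0450, RPL39 from -0.0041 to 0.0390, RPLP2 from -0.0089 to 0.0909, RPSA from -0.0279 to 0.0044 and RPS3 from -0.0049 to 0.0392. The causes were not tested.

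At 3 libraries a group, and with RPL36A and RPL17 near 14 and 29 CPM, changes of the size of most members are within the error, and 56 of 59 intervals of genes not called only limit a change to under 1.2-fold. Genes counted on near-identical copies, such as RPSA and RPS26, cannot be told apart from their pseudogenes here.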
